A study of Mus musculus with 12 samples.

Results

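The Hox cluster genes are the transcription factor genes that sit side by side in the HoxA, HoxB, HoxC and HoxD clusters. They were taken as every row of the deposited read count table whose symbol is Hoxa, Hoxb, Hoxc or Hoxd followed by a number, which gave 39 of 55573 genes. Of these, 38 are described here: 10 Hoxa, 10 Hoxb, 9 Hoxc and 9 Hoxd genes. RNA-sequencing was performed on tumourspheres of A1005, A1129 and A1471, which are 3 independent spindloid tumour cell lines from the MMTV-Metmt;Trp53fl/+;Cre mouse model of breast tumours. Every group shared these alleles: a Met transgene driven by the mouse mammary tumour virus promoter, 1 conditional allele of Trp53, and Cre, whose driver is not given in the sources used here. Tumourspheres were treated for 24 h with DMSO as the control, with the Met inhibitor Crizotinib, with the FGFR inhibitor PD173074, or with both (the combination). Each treatment had 1 library from each line (n = 3 lines), and each line had 4 libraries. Each line comes from 1 tumour, so a difference between lines is a difference between 3 cell lines and not between kinds of tumour.

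Hox proteins bind DNA together with TALE cofactors of the Pbx, Meis and Pknox families and give cells their position along the body axis. The order of the genes in a cluster follows the order in which they are used along that axis, with the low paralog groups toward the 3′ end for anterior positions and the high ones toward the 5′ end for posterior positions. Adult cells often keep the Hox pattern of their origin, which is held on by Trithorax proteins and held off by Polycomb proteins. In the mammary gland, Hoxc6 and Hoxc8 are known from the early mammary line and the genes of paralog group 9 from growth of the gland. Hoxa5 is known from lung and axial skeleton development, among other places.

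The libraries held 13031492 to 17750476 counts each, and 178099197 in all. At these depths, 3 counts, the limit that a count of 0 allows, corresponded to 0.169 to 0.230 CPM (the count scaled to a fixed library total) in a single library, and to 0.0168 CPM over the 12 libraries pooled. These limits cover counting error only, since no molecular identifiers mark which reads come from 1 molecule. Markers of mesenchymal cells summed to 2456 to 8486 CPM over 7 genes in every library, mostly Vim (1903 to 3204 CPM) and Fn1, while Snai2 stayed at 2.41 CPM or below (0 reads in A1005) and Cdh2 at 0.453 CPM or below (0 reads in A1129). Luminal epithelial markers summed to 7.09 to 86.6 CPM over 8 genes, with Cldn7 at 0, and basal or myoepithelial markers to at most 14.1 CPM over 5 genes, with Krt5 at 0. The highest basal sums were mostly Trp63 in A1005 (up to 13.8 CPM). Endothelial markers stayed between 0.0719 and 0.752 CPM over 4 genes, and adipocyte markers between 1.74 and 65.0 CPM over 4 genes, with Adipoq and Lep at 0. The adipocyte sum was nearly all Fabp4, which alone spanned 1.74 to 65.0 CPM.

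Most Hox genes were silent in all 3 lines. Of the 38 genes described, 31 (81.6%) had 0 counts in all 12 libraries, and 33 had at most 3 counts in each library, the limit used here to call a gene silent. All 10 Hoxb genes (chr11:96194316-96368256, mm10), all 9 Hoxc genes (chr15:102921103-103036852) and all 9 Hoxd genes (chr2:74668310-74765142) were at 0 in every library. Within HoxA (chromosome 6), Hoxa2, Hoxa9 and Hoxa11 were at 0 throughout. The genes known from the mammary line, Hoxc6 and Hoxc8, and all 4 measured members of paralog group 9 (Hoxa9, Hoxb9, Hoxc9 and Hoxd9) were therefore among those without a read. The 566 reads on the 38 genes fell on 7 Hoxa genes, with 5 to 14 reads in a library of A1005 or A1129 and 77 to 172 in one of A1471.

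**Figure D1:**
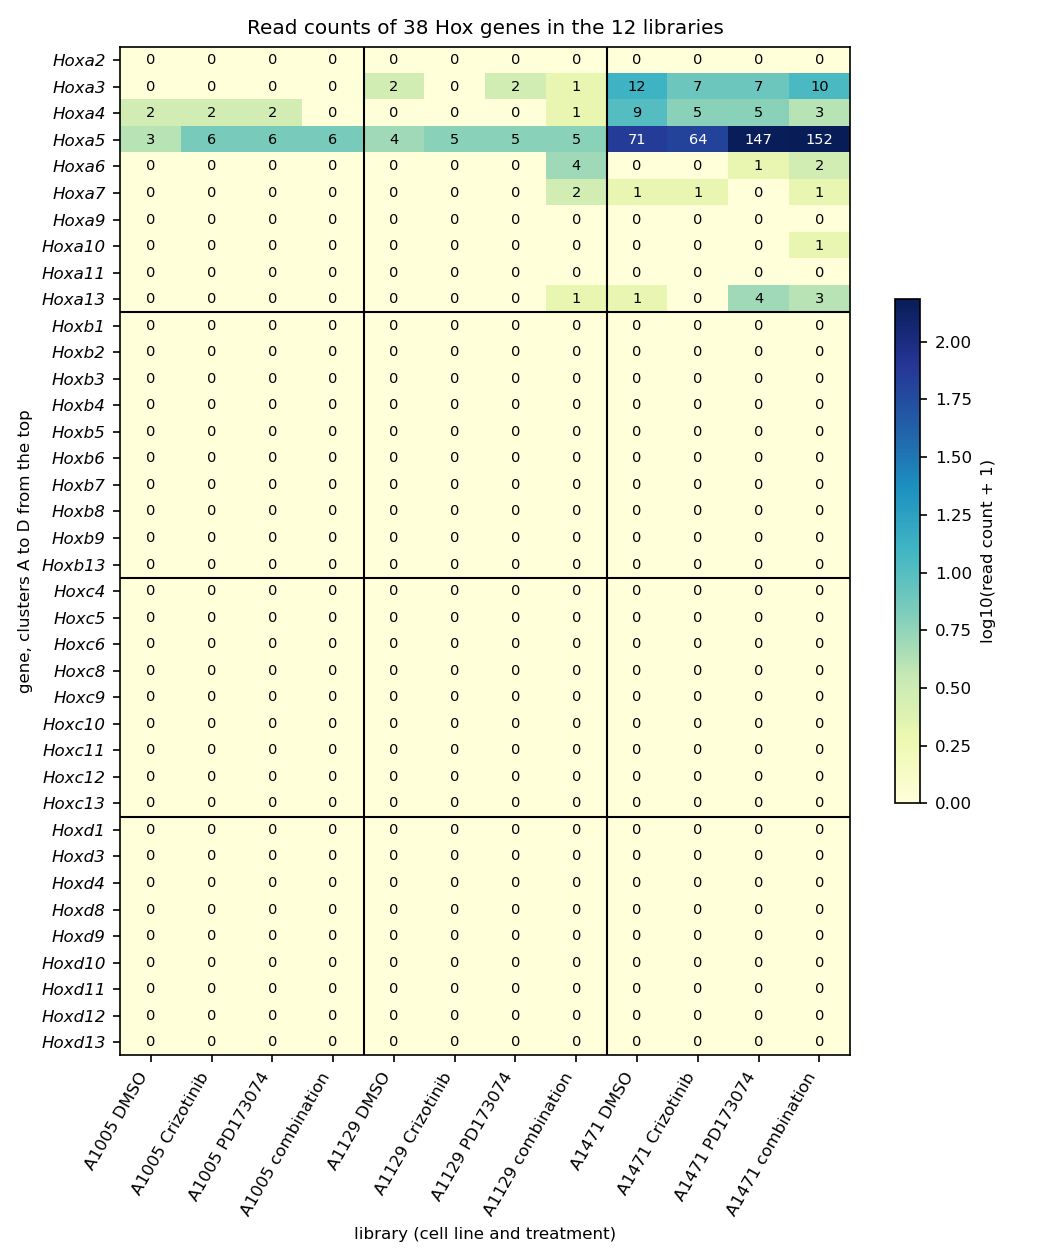
Read counts of 38 Hox genes (rows, by cluster and paralog group) in the 12 libraries (columns, by line and treatment), with the count printed in each cell and colour on a log10 scale. Hoxa5 held 64 to 152 reads in the 4 A1471 libraries and 3 to 6 reads in the others, and the rows of clusters B, C and D are 0 throughout.

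The share of genes without a read was read against other genes. Of all 55573 genes in the table, 27069 (48.7%) had 0 counts in all 12 libraries, and of 21980 protein-coding genes 5405 (24.6%). Among 44 genes of 6 other families of developmental transcription factors (Dlx, Msx, Lhx, Pax and Tbx among them), chosen after their values were seen, 14 (31.8%) had no read. In these families 5 genes were at 1 CPM or more in every library, among them Tbx15 (7.65 to 29.6 CPM), which acts in development of the limb skeleton, and Pax9 (2.41 to 43.9 CPM), which acts in pharyngeal pouch and tooth development. The counting of overlapping genes can lower a Hox count, because reads on exons shared by 2 genes may be discarded. Of the 31 genes at 0, 19 shared no exonic base with another gene on either strand, and 28 had at least 50% of their exonic bases to themselves. The lowest shares were 37.2% for Hoxd3, 47.1% for Hoxb3 and 47.7% for Hoxd4.

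**Figure D2:**
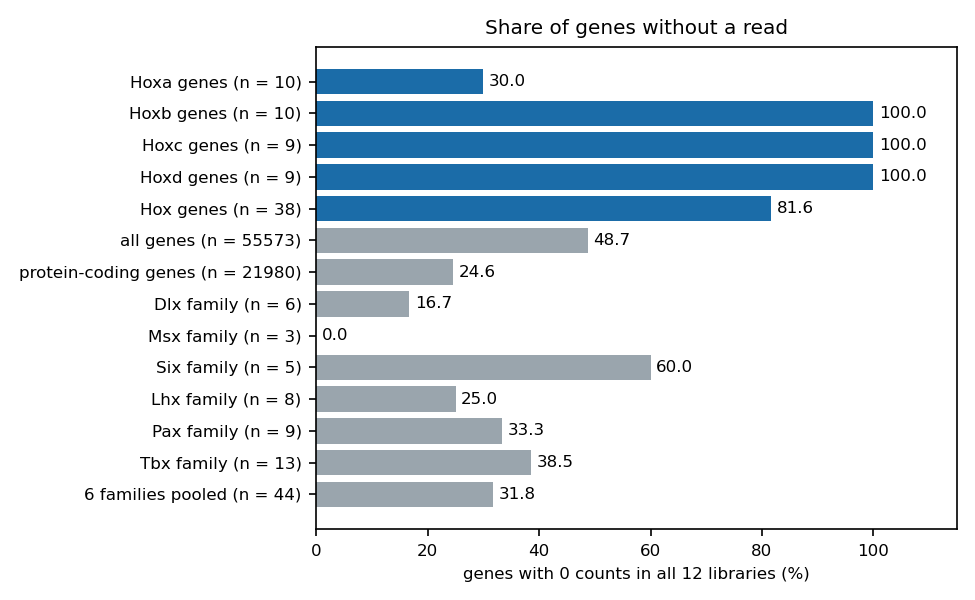
Percentage of genes with 0 counts in all 12 libraries, for the Hox clusters (blue) and for other gene sets (grey), with the number of genes in each set. The bars of Hoxb, Hoxc and Hoxd genes cover every gene, those of Hoxa genes 30.0%, and the 6 other families pooled 31.8%.

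Hoxa5 set A1471 apart. Hoxa5 (ENSMUSG00000038253, chr6:52201754-52204587, minus strand) held 3, 6, 6 and 6 reads in the 4 libraries of A1005 and 4, 5, 5 and 5 reads in those of A1129, in the order DMSO, Crizotinib, PD173074 and the combination. In A1471 it held 71, 64, 147 and 152 reads. All 4 A1471 libraries lay above all 8 libraries of the other lines. The share of all genes with such a separation was not counted. In bulk libraries fewer cells with a transcript and less RNA per cell cannot be told apart. Normalized by the TMM method, the mean level was 7.86 ± 3.61 CPM (SD, n = 4 libraries) in A1471, against 0.335 ± 0.0743 CPM in A1005 and 0.316 ± 0.0398 CPM in A1129. Per kb of exon, 4.19 CPM per kb in A1471 placed Hoxa5 at percentile 44.05 of the genes tested, while in the other lines it stood at percentile 6.29 or below. No exonic base of Hoxa5 is shared with another gene. Of the 38 genes, Hoxa5 alone was at 1 CPM or more in all 4 libraries of a line.

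**Figure D3:**
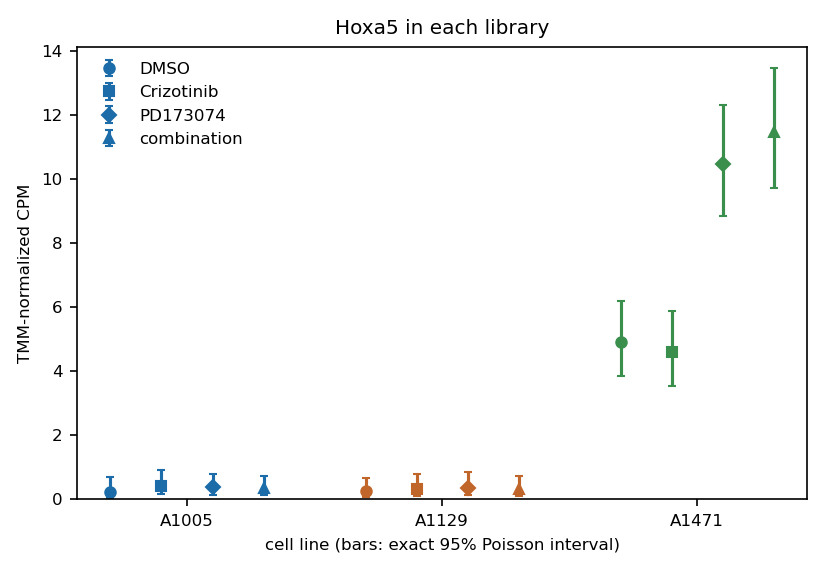
TMM-normalized CPM of Hoxa5 in each library, by cell line (colour) and treatment (symbol), with exact 95% Poisson intervals that cover counting error only. Hoxa5 lies between 4.60 and 11.5 CPM in A1471 and below 0.41 CPM elsewhere.

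The base sequence before the gene start is shown for 3 genes to set Hoxa5 beside genes without a read, with each CpG pair in capitals, since CpG-rich starts are those that Polycomb and Trithorax proteins are known to occupy. The 250 bases before each start come from RefSeq (GRCm38.p6, the build called mm10), whose table matched 22 of the 38 genes with 24 windows. Hoxa5 was the gene high in A1471 (chr6:52204588-52204837, minus strand), Hoxa2 a HoxA gene at 0 in every library (chr6:52164832-52165081, minus strand) and Hoxb4 a gene of the silent HoxB cluster (chr11:96318017-96318266, plus strand).
Hoxa5: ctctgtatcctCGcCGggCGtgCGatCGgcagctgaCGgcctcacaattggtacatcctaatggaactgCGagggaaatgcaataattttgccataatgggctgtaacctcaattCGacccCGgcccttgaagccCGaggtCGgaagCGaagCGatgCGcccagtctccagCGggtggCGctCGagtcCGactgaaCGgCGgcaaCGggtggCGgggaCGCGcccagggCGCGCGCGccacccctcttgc
Hoxa2: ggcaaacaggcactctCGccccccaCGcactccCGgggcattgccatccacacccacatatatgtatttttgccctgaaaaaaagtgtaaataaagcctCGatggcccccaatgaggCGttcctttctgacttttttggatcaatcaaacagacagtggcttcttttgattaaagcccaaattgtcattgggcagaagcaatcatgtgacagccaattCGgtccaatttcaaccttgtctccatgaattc
Hoxb4: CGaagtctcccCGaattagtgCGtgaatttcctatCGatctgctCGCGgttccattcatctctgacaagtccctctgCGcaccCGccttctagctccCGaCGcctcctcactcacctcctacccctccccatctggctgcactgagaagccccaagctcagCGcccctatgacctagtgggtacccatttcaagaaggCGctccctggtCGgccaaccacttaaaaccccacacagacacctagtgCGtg

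The Hoxa5 window held 28 CpG pairs, a number reached by 7.6% of all 32851 RefSeq windows of this length. The Hoxb4 window held 14 (reached by 29.4%) and the Hoxa2 window 6 (reached by 50.4%). Across the Hox genes, 5 of the 7 windows of genes with a read (71.4%) and 4 of the 17 windows of genes without one (23.5%) held at least 15 CpG pairs, against 27.3% of all windows. The genes with a read were all HoxA genes. Their CpG-rich windows included those of Hoxa6, Hoxa10 and Hoxa13, which held 7, 1 and 9 reads over the 12 libraries. The matched windows covered 3 Hoxb genes and 1 Hoxc gene. These shares therefore do not compare expressed with silent genes. The silent genes were not uniformly poor in CpG. Hoxd13, at 0 in every library, held 31 CpG pairs, more than Hoxa5. These counts describe the letters and say nothing of methylation or binding, which were not measured here.

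Lower counts fell on other genes of the cluster. Hoxa3, which acts in development of the pharynx, was at 0 in all 4 libraries of A1005, held 2, 0, 2 and 1 reads in A1129 and 12, 7, 7 and 10 reads in A1471 (0.646 ± 0.171 CPM, SD, n = 4 libraries). Hoxa4 held 2, 2, 2 and 0 reads in A1005, 0, 0, 0 and 1 in A1129 and 9, 5, 5 and 3 in A1471 (0.391 ± 0.166 CPM). For both genes, every A1471 library lay above every library of the other lines. For Hoxa4 this margin was within counting error. The lowest A1471 library (combination) held 3 reads, 0.226 CPM, and the highest A1005 library (DMSO) 2 reads, 0.156 CPM. Their exact Poisson intervals, 0.047 to 0.66 CPM and 0.019 to 0.56 CPM, overlapped. How many of all genes separate A1471 in this way was not counted. Summed over the 4 libraries, the A1471 level of Hoxa3 was at least 13.4-fold that of A1005, where 3 counts over the 4 libraries were used as the floor, and 7.79-fold that of A1129. Hoxa4 was 4.08-fold higher than in A1005 and 7.94-fold higher than in A1129, the latter against a single read.

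Toward the 5′ end of the cluster there were single reads. Hoxa6 held 4 reads in the A1129 combination library, and 1 and 2 reads in the PD173074 and combination libraries of A1471. Hoxa7 held 2 reads in the A1129 combination library and 1 each in the DMSO, Crizotinib and combination libraries of A1471. Hoxa10 held 1 read in the series, in the A1471 combination library. Hoxa13 held 1 read in the A1129 combination library and 1, 0, 4 and 3 reads in A1471 with DMSO, Crizotinib, PD173074 and the combination. None of these 4 genes had a read in A1005. The combination libraries of A1129 and A1471 had a read on 6 and 7 of the 38 genes, while that of A1005 had a read on 1, and the libraries of the other treatments on 1 to 5. The share of all genes with a read in each library was not counted. These numbers are therefore not read as a response of the Hox genes. Hoxa6, Hoxa7, Hoxa10 and Hoxa13 each stayed at 4 reads or fewer in every library.

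**Figure D4:**
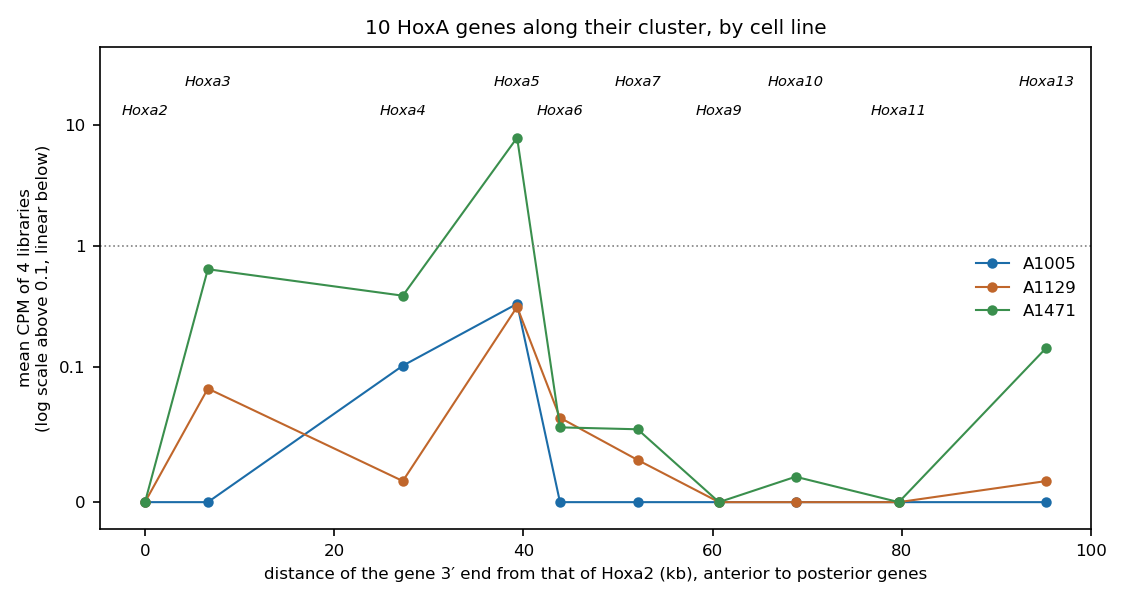
Mean CPM over 4 libraries of 10 HoxA genes in each line (colours), placed by the distance of the 3′ end of each gene from that of Hoxa2 in kb, on a scale that is logarithmic above 0.1 CPM and linear below. Lines join the points to guide the eye, and the dotted line marks 1 CPM. Hoxa5 is above 1 CPM in A1471 alone, and the genes on the 5′ side of Hoxa5 are at 0.145 CPM or below in all lines.

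The lines were then compared with the quasi-likelihood test of edgeR in a fit with line and treatment, with Benjamini-Hochberg adjustment over the 13836 genes that passed its filter on low counts. Of the 38 Hox genes, Hoxa5 passed the filter, and it did so through the A1471 libraries, so the comparisons of A1471 are also given from the fit of all genes with a read, without the filter. The p-values measure the spread between libraries of the same line, which differ by treatment. Between A1129 and A1005, Hoxa5 had a log2 fold change of -0.06 (adjusted p = 0.946) and did not pass the threshold of 0.05 in edgeR, DESeq2 or limma-voom, where 57.8% of all tested genes did in edgeR. In A1471 against A1005, Hoxa5 was higher by a log2 fold change of 4.48 (standard error 0.29, adjusted p = 7.8e-07, and 4.49 with adjusted p = 8.83e-16 without the filter). In the same direction, 27.3% of all tested genes passed.

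In A1471 against A1129, Hoxa5 was higher, where 21.2% of all tested genes were. It had a log2 fold change of 4.54 (standard error 0.29, adjusted p = 2.3e-06, and 4.57 with adjusted p = 1.63e-15 without the filter). As a ratio of summed CPM, Hoxa5 in A1471 was 23.0-fold the level in A1005 and 24.7-fold that in A1129. Without the filter on low counts, Hoxa3 was also higher in A1471 than in A1005 (adjusted p = 1.6e-05 in edgeR, where 13.3% of genes were higher) and than in A1129 (adjusted p = 0.00194, where 11.1% were higher). Hoxa4 was higher than in A1129 (adjusted p = 0.00399) and not past the threshold against A1005 (adjusted p = 0.0765). The lines also differed in markers of other cells. Summed luminal epithelial markers were at 7.09 to 23.4 CPM in A1471, 21.2 to 52.3 CPM in A1129 and 45.3 to 86.6 CPM in A1005, and immune markers at 4.49 to 8.22 CPM, 4.34 to 10.8 CPM and 31.3 to 42.0 CPM in the same order (4 genes). The immune sum of A1005 was Ptprc and Cd68 (means of 16.4 and 18.9 CPM), with Adgre1 at 0 reads and Cd3e at 2. In A1471 and A1129 it was nearly all Cd68 (means of 6.0 and 6.16 CPM). The luminal order of A1471 and A1129 rested on Krt18 (means of 7.72 and 31.6 CPM). Krt8 (5.19 and 1.82 CPM) and Epcam (0.824 and 0.334 CPM) went the other way. The other luminal markers averaged below 0.23 CPM in both lines. Summed fibroblast markers were at 57.01 to 290 CPM in A1471, 171 to 324 CPM in A1129 and 465 to 1713 CPM in A1005, where Col1a1 and Col1a2 held 28987 and 24827 reads against 7 to 22 reads in each other line. Pdgfrb and Pdgfra did not follow this order. Pdgfrb averaged 43.3 CPM in A1471, 2.42 CPM in A1129 and 17.9 CPM in A1005, and Pdgfra 114, 234 and 125 CPM in the same order. The part of these markers in the Hox differences was not tested.

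Hoxa5 did not pass the threshold with either inhibitor alone in edgeR or limma-voom. In the unpaired edgeR fit over the 12 libraries, Crizotinib gave a log2 fold change of -0.02 for Hoxa5 (standard error 1.88), with an adjusted p of 1 and an unadjusted p above 0.05. Of all tested genes, 0% passed the threshold in this comparison, whether or not the line was a block. For PD173074, Hoxa5 had a log2 fold change of 1.04 (standard error 1.89), with an adjusted p of 1 and an unadjusted p above 0.05, and again 0% of all tested genes passed. With the cell line as a block, PD173074 gave 0.91 for Hoxa5 (standard error 0.34, unadjusted p = 0.0238, adjusted p = 0.228), where 2.14% of all tested genes passed. With DMSO, Hoxa5 averaged 1.80 ± 2.69 CPM over the lines (SD, n = 3 lines), a spread larger than the mean, and the block removes such differences between lines.

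The combination gave the same picture without the block and a different call with it. Unpaired, Hoxa5 had a log2 fold change of 1.16 (standard error 1.89, adjusted p = 0.753) and did not pass in edgeR, where 14.4% of all tested genes did. It did not pass at an unadjusted p of 0.05 in edgeR either, and was not called by limma-voom, where the log2 fold change was 0.36. In the unpaired treatment comparisons DESeq2 gave no adjusted p for Hoxa5. With the cell line as a block, Hoxa5 rose by 0.94 on the log2 scale (standard error 0.34, adjusted p = 0.0368). In that fit 54.8% of all tested genes passed (28.6% higher and 26.2% lower), so a call in that fit does not set Hoxa5 apart from other genes. The call was lost with the block in DESeq2 (log2 fold change 0.90, adjusted p = 0.146), in limma-voom (1.01, adjusted p = 0.0606) and without A1129 (1.11, adjusted p = 0.0522), with a change of similar size.

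The rise of Hoxa5 rested on A1471. In that line Hoxa5 was at 4.90 CPM with DMSO (exact 95% Poisson interval 3.83 to 6.19) and 4.60 CPM with Crizotinib (3.54 to 5.88). It was at 10.5 CPM with PD173074 (8.84 to 12.3) and 11.5 CPM with the combination (9.72 to 13.4). The libraries with PD173074, alone or combined, overlapped each other and lay above the libraries without it, beyond counting error. The ratio to DMSO was 2.13 for PD173074 (exact 95% interval 1.60 to 2.87), 2.34 for the combination (1.75 to 3.15) and 0.938 for Crizotinib (0.659 to 1.33). In A1005 and A1129 the ratios for the combination were 1.42 (0.304 to 8.80) and 1.19 (0.256 to 6.002), intervals that hold both no change and the A1471 ratio. With 1 library for each line and treatment, a difference in response between the lines cannot be tested, and the intervals cover counting error within a pair of libraries. Without A1471, Hoxa5 did not pass the filter and had no test.

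Of the 38 genes, none at 0 with DMSO in all 3 lines rose above the floor with any inhibitor except Hoxa6, which reached 4 reads in 1 library (A1129, combination).

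Other transcripts of the clusters were read in the same way. Inside the spans of the 4 clusters lie 46 further genes, 38 of them at 0 in all 12 libraries, and 6 had more than 3 counts in some library. In HoxC all 7 such genes were at 0, including Hotair, a long non-coding RNA studied for its link with Polycomb, and in HoxD all 10 were at 0. Hotairm1, an antisense RNA of HoxA known from myeloid cells, held 50 to 110 reads in every library. Its level was 4.24 ± 0.557 CPM with DMSO (SD, n = 3 lines) and 5.65 ± 2.30 CPM with the combination (log2 fold change 0.41, adjusted p = 0.472, and 0.36 with the block, adjusted p = 0.276). Gm15050, an antisense gene of HoxA, held 4 reads with DMSO and 19 with the combination in A1005, 17 and 45 in A1129, and 18 and 29 in A1471. With the cell line as a block it rose with the combination (a log2 fold change of 1.22, standard error 0.33, adjusted p = 0.00997) and not in the unpaired fit (1.17, adjusted p = 0.276). In HoxB, the pseudogene Gm11539 held 5 to 14 reads in every library. Whether the counting used strand is not given in the sources used here, so reads on bases that a gene shares with its antisense partner cannot be told apart.

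The genes that flank the clusters were chosen after their values were seen. Of 16 flanking genes 11 passed the filter, and with the combination 3 were higher and 1 lower in the unpaired fit, where 6.1% and 8.28% of all tested genes were, and 4 higher and 4 lower with the block (28.6% and 26.2%). On the 3′ side of HoxA, Skap2, an adaptor protein of the Src family kinases, held 284 to 1421 reads with DMSO or the combination and rose by 1.59 on the log2 scale with the combination (adjusted p = 0.00794). On the other side of the cluster, Evx1, a homeobox gene next to Hoxa13, was at 0 in all 12 libraries, and Hibadh, a mitochondrial enzyme gene, held 666 to 1415 reads. Evx2, next to Hoxd13, was also at 0. Beside the silent HoxC cluster, Calcoco1 was at 37.7 ± 16.3 CPM with DMSO and 153 ± 18.1 CPM with the combination (SD, n = 3 lines, log2 fold change 2.02, adjusted p = 0.00989), and Cbx5, which encodes a heterochromatin protein, at 359 ± 101 and 188 ± 98.1 CPM (-0.93, adjusted p = 0.143, and -0.99 with the block, adjusted p = 0.000433). Beside the silent HoxD cluster, Hnrnpa3, an RNA-binding protein gene, was at 693 ± 138 CPM with DMSO and 373 ± 112 CPM with the combination (-0.89, adjusted p = 0.0577, and -0.91 with the block, adjusted p = 3.4e-05), and Lnpk was at 29.1 ± 4.95 and 16.5 ± 3.12 CPM (-0.82, adjusted p = 0.0268). Beside HoxB, Calcoco2 and Ttll6 were at 0 with DMSO in all 3 lines, and Snx11 was at 11.3 ± 3.09 CPM.

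TALE cofactors were present beside the mostly silent Hox genes. All 8 genes of the list passed the filter, and 6 were at 1 CPM or more in every library. Pbx2, Pbx3, Meis1, Meis2 and Pknox1 were at 15.3 CPM or more in every library, with Pbx2 at 39.5 ± 15.4 CPM with DMSO (SD, n = 3 lines) and 38.3 ± 15.7 CPM with the combination. In the unpaired fit of the combination 0 of 8 passed, where 6.1% of all tested genes were higher. With the block 4 of 8 were higher (Pbx4, Meis2, Meis3 and Pknox2) and 0 were lower, against 28.6% and 26.2% of all tested genes. Meis2, which acts in limb and craniofacial development, went from 19.5 ± 5.43 CPM to 32.2 ± 7.81 CPM (log2 fold change 0.73 with the block, standard error 0.15, adjusted p = 0.00235, and 0.72 unpaired, adjusted p = 0.152). Meis3 went from 4.20 ± 2.98 CPM to 9.78 ± 6.81 CPM (1.16 with the block, adjusted p = 0.00457, and 1.22 unpaired, adjusted p = 0.362). The median of the 8 log2 fold changes with the block was 0.47, beside 0.027 over all tested genes. Pbx4 and Pknox2 were at 0.304 ± 0.161 and 0.0699 ± 0.0662 CPM with DMSO, near the floor. No cofactor of the list passed with either inhibitor alone in either fit.

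**Figure D5:**
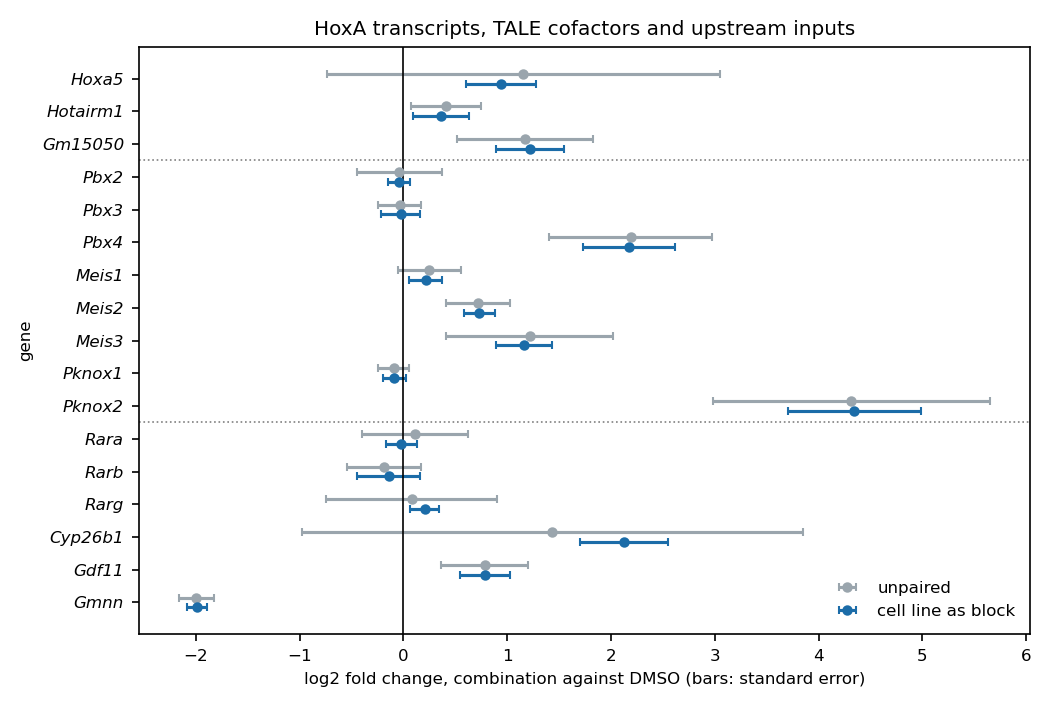
Log2 fold change of the combination against DMSO for 3 transcripts of HoxA (top), 8 TALE cofactors (middle) and the 6 tested upstream inputs (bottom), without (grey) and with (blue) the cell line as a block, with standard errors as bars. Gmnn lies at -1.995 unpaired and Meis2 at 0.72, and the bar of Hoxa5 shortens from 1.89 to 0.34 with the block.

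Among the genes that are known to control Hox clusters from upstream, the caudal factors Cdx1 and Cdx2 were at 0 in all 12 libraries, and 6 of the 11 listed genes passed the filter. The retinoic acid receptors were all present, with Rarg at 278 ± 5.96 CPM in A1005, 60.7 ± 16.3 CPM in A1129 and 113 ± 10.3 CPM in A1471 (SD, n = 4 libraries). Cyp26b1, which breaks down retinoic acid, was at 103 ± 53.0 CPM in A1005, 0.892 ± 0.944 CPM in A1129 and 5.05 ± 4.84 CPM in A1471. With the combination, Gmnn, an inhibitor of DNA replication licensing that also binds Hox proteins, fell by 1.995 on the log2 scale (standard error 0.17, adjusted p = 0.000124), which was the 1 call of 6 in the unpaired fit, where 8.28% of all tested genes were lower. With the block, 2 of 6 were higher (Cyp26b1 and Gdf11) and 1 lower (Gmnn), against 28.6% and 26.2% of all tested genes.

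Polycomb genes were present in full. All 23 listed genes were at 1 CPM or more in every library, with a summed level of 1855 to 2521 CPM. With the combination, 1 was higher and 4 were lower in the unpaired fit, where 6.1% of all tested genes were higher and 8.28% lower, and the median log2 fold change was -0.03, beside 0.024 over all tested genes. Phf19, which brings Polycomb repressive complex 2 to chromatin, fell from 32.7 ± 6.79 to 6.59 ± 0.216 CPM (SD, n = 3 lines, adjusted p = 0.000443). Eed and Suz12, core subunits of that complex, fell from 64.1 ± 4.90 to 33.7 ± 8.18 CPM (adjusted p = 0.00875) and from 187 ± 45.2 to 104 ± 10.3 CPM (adjusted p = 0.0439). Phc2 was the other gene that fell, and Ezh1, a catalytic subunit, rose from 27.1 ± 4.76 to 45.01 ± 5.83 CPM (adjusted p = 0.0307). Ezh2, the other catalytic subunit, was at 135 ± 18.8 CPM with DMSO and 90.4 ± 23.1 CPM with the combination (adjusted p = 0.0855 unpaired), and was lower with the block (log2 fold change -0.60, adjusted p = 0.000549). With the block, 7 of 23 were higher and 8 lower, near the 28.6% and 26.2% of all tested genes.

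Trithorax genes and H3K27 demethylases were likewise all at 1 CPM or more in every library (11 of 11). With the combination, 0 were higher and 3 of 11 lower in the unpaired fit (6.1% and 8.28% of all tested genes): Dpy30 (log2 fold change -1.13, adjusted p = 0.0159), Wdr5 (-0.83, adjusted p = 0.0233) and Psip1 (-0.74, adjusted p = 0.0118), whose products belong to or recruit histone methyltransferase complexes. With the block, 2 were higher and 6 lower, against 28.6% and 26.2%. Fibroblast markers also moved with the combination. Their summed level over 6 genes was 66.9 to 465 CPM with DMSO and 290 to 1713 CPM with the combination, and all 4 that passed the filter (Pdgfra, Pdgfrb, Col1a1 and Col1a2) were higher with the block, where 28.6% of all tested genes were, with 0 called in the unpaired fit. Col1a1 and Col1a2 were near 0 outside A1005 (at most 0.755 CPM), Pdgfra alone of the 6 was at 1 CPM or more in every library, and Dpt and Lum held at most 13 reads over the libraries of any line. Their part in the Hoxa5 difference was not tested.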

How the data were processed

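The authors sequenced total RNA of the tumourspheres on a NextSeq500 instrument, aligned the reads to mm10 with STAR and deposited 1 table of raw counts of reads on Ensembl genes. The submitters' processing notes also name bcl2fastq and HTSeq. The annotation release, the strand setting and the RNA selection are not given in the sources used here. The table held 55573 genes, of which 55480 matched the GENCODE annotation used here for coordinates and exon lengths (same build).

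The 39 genes, the gene lists and the families were chosen with earlier results of these data known. One Hox gene and some genes of the lists are not reported here. Genes to be described with values were those with a mean of at least 1 CPM in some line, and the others are given by their counts. Levels and ratios of Hoxa3 and Hoxa4, below that limit, were added after their counts were seen. Low counts were removed with filterByExpr (at least 10 counts, and 15 in total), which left 13836 genes. After TMM normalization, edgeR 4.0.16 (R 4.3.3) was used for its quasi-likelihood test (Benjamini-Hochberg, threshold 0.05). Treatments were compared unpaired over the 12 libraries, as in the paper's methods, and lines with treatment as a term. Standard errors are the absolute log2 fold change divided by the square root of F, and CPM is the count over the TMM-scaled library size. The cell line in the labels pairs the libraries, and those of the same line deviated together from their treatment means (lowest correlation 0.766 over 18 pairs, across genes), so the fit with the cell line as a block was run as the paired analysis. Poisson and ratio intervals are exact at 95%.

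The alternatives were the block, DESeq2 1.42.0, limma-voom (limma 3.58.1), DESeq2's size factors, total counts, no low-count filter, only the groups compared, no treatment term, each line or treatment left out, a log2 fold change limit of 1.5, and CPM minimums of 0.5 and 2. The block with DESeq2, with limma-voom, without the filter and without each line was added after seeing the data. No 2 libraries held identical counts (0 of 66 pairs). Python 3.11.15, pandas 2.3.3, scipy 1.17.1 and matplotlib 3.10.9 were used for tables and plots. RefSeq protein sequences and a genome were not used here.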

Additional observations from a re-analysis of the deposited data

How the results depend on the processing

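No result reversed. The counts here are of the 38 genes described. With Crizotinib or PD173074, 0 were called under the 17 alternatives each, but 3 of these tested no Hox gene (without A1471, with or without the block, and only the groups compared) and unpaired DESeq2 gave Hoxa5 no adjusted p. The same 3 fits gave no test of Hoxa5 with the combination. Between A1129 and A1005, 0 were called under all 12. With the combination the count was 0 unpaired and 1 (Hoxa5) with the cell line as a replicate block, 1 with the block without A1005 and 1 with the block and no filter. It was 0 with the block in DESeq2 and limma-voom and without A1129, and the unpaired log2 fold change of Hoxa5 was 0.36 to 1.22 over the alternatives. The block changed no other call. In A1471 against A1005, 1 gene was called, and 2 without the low-count filter (Hoxa3 added, since all genes with a read were then tested). In A1471 against A1129, 1 gene was called, and 3 without the filter (Hoxa3 and Hoxa4 added). Leaving out the libraries of 1 treatment left 1 call in each of these comparisons. Hoxa5 in A1471 kept its call under all 11 alternatives against each line (log2 fold change 4.25 to 4.80 against A1005 and 4.31 to 4.77 against A1129). Hoxa5 stayed the 1 gene expressed in A1471, and A1005 and A1129 had 0, under the other CPM minimums and with total counts. Depth limits all genes at 4 reads or fewer, where a several-fold change cannot be told from counting error.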
